A study of Homo sapiens with 6 samples.

Results

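The AP-1 and immediate early genes examined here are 10 genes, FOS, FOSB, JUN, JUNB, JUND, ATF3, EGR1, DUSP1, ZFP36 and IER2, read by 22 probe sets that the platform's annotation assigns to 1 of them and to no other gene. They are 10 of the 19775 genes, and 22 of the 41091 probe sets, that carry a single gene symbol on the array. The list was chosen by the levels on these arrays, where several of its genes stood high in the line ARP1. ARP1 against the other lines is therefore given as a description, without a test. RNA came from ARP1, OCI-MY5 and OPM2, 3 established human lines of multiple myeloma, a cancer of plasma cells. Each line was grown in RPMI-1640 with serum and split by flow cytometry into CD24+ and CD24- cells, CD24 being a glycoprotein of the cell surface that the submitters use to mark cancer stem cells. Each of the 6 line and fraction samples gave 1 array, so there were 3 arrays per fraction and 2 per line, and the labels name no agent added to any group. The labels name no repeated cultures, so fractions of 1 line are compared on single arrays, and p-values measure only the spread between these arrays.

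Immediate early genes are switched on within minutes of a growth signal or stress, without new protein synthesis, by transcription factors that already sit at their promoters. FOS, FOSB, JUN, JUNB, JUND and ATF3 encode leucine zipper proteins that pair with each other as AP-1 and related dimers on DNA. EGR1 is a zinc finger transcription factor, DUSP1 a phosphatase that turns MAP kinases off, ZFP36 a protein that binds AU-rich mRNAs and speeds their decay, and IER2 a nuclear protein of the same early response. Their mRNAs are mostly short-lived. In cells of the B lineage they are induced by antigen receptor, cytokine and stress signals.

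The sequences just before the start sites of 6 members show which of the marked signal-responsive motifs lie in that stretch. For 5 of these members the lower ARP1 array was 3.16 (EGR1) to 41.7 (FOS) times the highest other array. The last, ZFP36, was near level across the arrays. The sequences are the 250 bases before each start site from RefSeq on GRCh38.p14, written 5′ to 3′ along the gene's own strand. The window of FOS is chr14:75278578-75278827 (+ strand), FOSB at chr19:45467746-45467995 (+ strand) and JUN at chr1:58784048-58784297 (- strand). That of EGR1 is chr5:138465229-138465478 (+ strand), DUSP1 at chr5:172771196-172771445 (- strand) and ZFP36 at chr19:39406597-39406846 (+ strand). Capitals mark the TGACG core of cAMP response elements on either strand, the full or JUN-type element TGACNTCA, and the CArG box bound by serum response factor.
FOS: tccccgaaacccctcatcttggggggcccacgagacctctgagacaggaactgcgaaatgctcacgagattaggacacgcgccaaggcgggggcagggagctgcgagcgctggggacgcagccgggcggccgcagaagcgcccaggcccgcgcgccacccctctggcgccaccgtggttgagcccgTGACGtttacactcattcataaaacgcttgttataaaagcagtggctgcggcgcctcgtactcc
FOSB: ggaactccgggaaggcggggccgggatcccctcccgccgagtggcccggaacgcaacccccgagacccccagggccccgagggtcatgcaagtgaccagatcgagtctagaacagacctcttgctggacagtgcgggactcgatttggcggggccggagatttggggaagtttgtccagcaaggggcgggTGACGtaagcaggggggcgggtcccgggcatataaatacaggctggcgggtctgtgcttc
JUN: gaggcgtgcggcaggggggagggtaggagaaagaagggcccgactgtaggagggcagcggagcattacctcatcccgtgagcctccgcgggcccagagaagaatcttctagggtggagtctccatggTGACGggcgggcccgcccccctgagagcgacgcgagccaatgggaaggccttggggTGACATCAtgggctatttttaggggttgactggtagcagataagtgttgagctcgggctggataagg
EGR1: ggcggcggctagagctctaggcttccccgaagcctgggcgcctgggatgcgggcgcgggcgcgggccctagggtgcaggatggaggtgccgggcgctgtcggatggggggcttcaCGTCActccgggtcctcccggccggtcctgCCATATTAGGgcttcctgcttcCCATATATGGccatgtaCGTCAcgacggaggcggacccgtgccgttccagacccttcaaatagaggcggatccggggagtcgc
DUSP1: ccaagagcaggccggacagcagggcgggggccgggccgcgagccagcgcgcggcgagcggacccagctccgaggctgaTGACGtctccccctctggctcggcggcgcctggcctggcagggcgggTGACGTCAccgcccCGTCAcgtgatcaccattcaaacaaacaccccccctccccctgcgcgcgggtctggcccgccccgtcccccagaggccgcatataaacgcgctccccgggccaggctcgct
ZFP36: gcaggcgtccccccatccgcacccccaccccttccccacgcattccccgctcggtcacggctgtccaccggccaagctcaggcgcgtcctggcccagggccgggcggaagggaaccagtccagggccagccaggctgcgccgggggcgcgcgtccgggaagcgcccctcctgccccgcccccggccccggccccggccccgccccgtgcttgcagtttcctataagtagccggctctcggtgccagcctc

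All 10 members matched a RefSeq window, ATF3 with 2 of them. Both strands were searched, and TGACNTCA overlaps TGACG where its N is G. TGACG was found before 8 of the 10 members, all but ATF3 and ZFP36, against 21.2% of all 35116 windows of the same length. TGACNTCA was found before JUN, JUND, DUSP1 and ATF3 (6.87% of all windows). The CArG box was found before EGR1 alone of the members (1.16% of all windows), where it occurs as CCATATTAGG and CCATATATGG. The AP-1 element TGANTCA occurred in none of the members' windows (6.57% of all windows). The letters TATAAA stood before FOS, FOSB, JUNB, DUSP1 and, in 1 of its windows, ATF3 (10.7% of all windows). The EGR1-type motif GCGNGGGCG was found before EGR1 itself (8.41%). The members' windows were richer in G and C, with a median of 68.4% against 58.0%, which changes how often any of these letters occur. JUNB, near level across the arrays, holds TGACG and TATAAA as FOS does. A match in a window describes letters and shows no binding. Bases further upstream were not searched, so a motif missing from a window, such as the CArG box for FOS, may still lie beyond it.

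The array of OPM2 CD24+ cells stood apart from the rest. The geometric mean over its spike-in control transcripts was 37362 intensity units, where the other 5 arrays had 6175 to 7399. Its median intensity was 135, where they had 69.0 to 84.2. The signal ratio of 3′ to 5′ probe sets, which grows as RNA or its copies get shorter, was lowest in ARP1: for ACTB it was 2.63 (CD24+) and 2.47 (CD24-) in ARP1 and 7.54 to 27.1 on the other 4 arrays, and for GAPDH it was 1.27 on both ARP1 arrays and 1.52 to 5.98 on the others. This ratio moved with the ARP1 contrast, and its part in the line differences below was not tested. TrpnX, a bacterial transcript that serves as a negative control, read 2.23 to 96.4 intensity units over its 3 probe sets and 6 arrays, and values within that range are treated as near background. Of 10 plasma cell markers 9 were above it on every array. Of 18 markers of B cells, T cells, monocytes, stroma and erythroid cells 1, COL1A1, was, and 5 were above it on none. HBB, a globin gene, read 1792 and 2298 in OPM2 and 76.2 to 225 elsewhere, which sets OPM2 apart and not ARP1. CD24 read 3.35 to 99.2 on its brightest probe set, so it gave no check of the sort.

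Of the 10 members, 7 had both ARP1 arrays at least 2-fold above each of the 4 other arrays: FOS, FOSB, JUN, EGR1, DUSP1, ATF3 and IER2. Over all 12067 genes bright enough to be tested this held for 1.48%, and no member was as far below the others in ARP1 (0.406% of all genes), nor below them by any amount (13.6%). At 4-fold 3 members remained, FOS, FOSB and DUSP1 (0.265%), and the same 3 were past 16-fold (0.0497%), FOS and FOSB against arrays mostly or wholly near background. JUND was above in ARP1 by less than 2-fold, which makes 8 of 10 members with both ARP1 arrays highest (17.2% of all genes). On the log2(intensity + 16) scale JUNB and ZFP36 varied less than 2-fold over the 6 arrays, 2 of 10 members against 35% of all genes. Set against the rest in the same way, OCI-MY5 was at least 2-fold lowest for 1 member, JUN (1.39% of all genes), and OPM2 for 1, EGR1 (6.19%). Neither line was 2-fold highest for a member (0.829% and 3.5%). The median difference of ARP1 from the mean of the other arrays was 2.23 for the members and 0.06 for all tested genes (log2(intensity + 16)). That scale, used for every log2 value here, understates the change of dim genes. All 10 members passed the brightness limit, a mean log2 value of 6.36, but FOS and FOSB passed it only through ARP1. The shares are a description, since the line contrast chose the list. In such bulk RNA, fewer cells of a kind and less RNA per cell cannot be told apart.

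**Figure D1:**
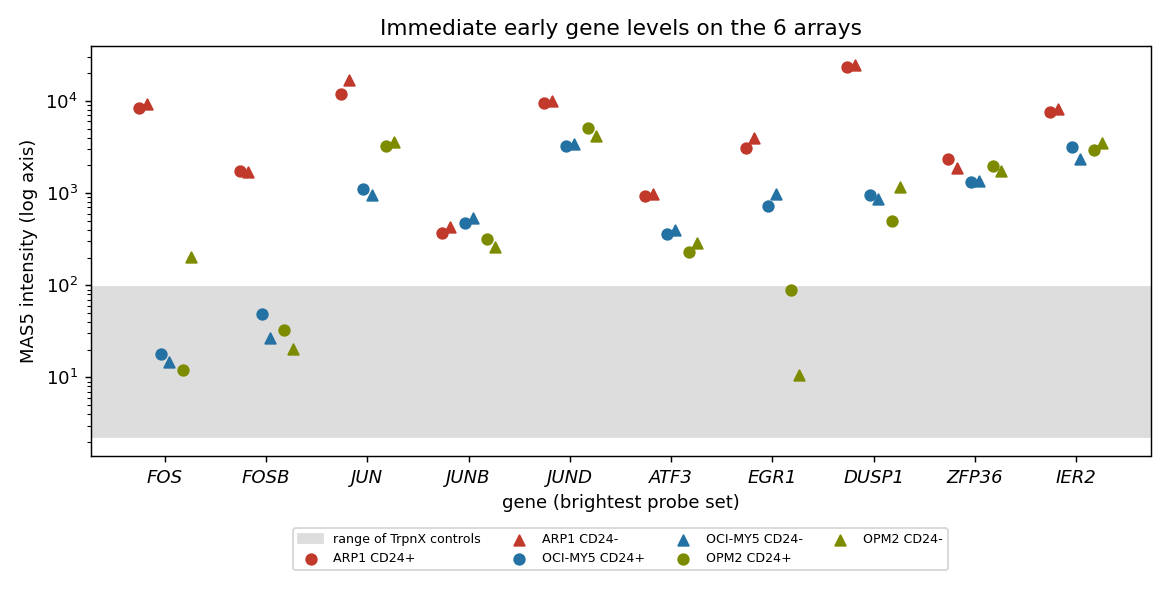
MAS5 intensity (log axis) of the brightest probe set of each member on the 6 arrays, colours for lines, circles for CD24+ and triangles for CD24- cells, with the range of the TrpnX negative controls shaded. FOS and FOSB stand at 1684 to 9394 in ARP1 and at or near the shaded range elsewhere, while JUNB and ZFP36 vary little.

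FOS and FOSB, the FOS-family partners of AP-1, were present in ARP1 and near background elsewhere. FOS read 8407 in CD24+ and 9394 in CD24- cells of ARP1, 17.7 and 14.5 in OCI-MY5, and 11.9 and 202 in OPM2. Both ARP1 arrays were high, 3 of the 4 others lay within the TrpnX range, and the OPM2 CD24- array alone rose above it. The lower ARP1 array was 41.7 times the highest other array. Its difference of 7.48 between ARP1 and the other arrays depends on the pseudocount, being 8.23 with 1 and 6.39 with 64 in place of 16. FOSB read 1727 and 1684 in ARP1, 48.9 and 26.5 in OCI-MY5, and 32.8 and 20.2 in OPM2. All 4 arrays of the other lines were within the TrpnX range, so FOSB was not separable from background there, and the levels of these lines overlapped each other. The lower ARP1 array of FOSB was 34.4 times the highest other array and 17.5 times the top of the TrpnX range. The difference of FOSB between ARP1 and the other arrays, 5.19, was 5.76 with a pseudocount of 1 and 4.21 with 64. Each of these genes has 1 probe set, so neither has a second reading on the array.

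JUN, the founding partner of FOS in AP-1, was well above background in every line on its brightest probe set and differed in steps. Its brightest probe set read 12004 and 16936 in ARP1, 3276 and 3581 in OPM2, and 1106 and 960 in OCI-MY5, so the lines did not overlap. The lower ARP1 array was 3.35 times the highest of the others, and the lower OPM2 array 2.96 times the higher OCI-MY5 array. ARP1 was above every other array on all 4 JUN probe sets, though by only 1.09 times on the dimmest, where OCI-MY5 read 65.6 and 72.5, within the TrpnX range. OPM2 was above OCI-MY5 on 3 of the 4. On the other one, OPM2 read 51.2 (within the TrpnX range) in CD24+ and 424 in CD24- cells, on either side of the 189 and 168 of OCI-MY5.

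The other JUN-family genes, JUND and JUNB, fell outside the 2-fold rule for ARP1. JUND, a JUN protein that many cells make at rest, read 9581 and 10053 in ARP1, 5128 and 4227 in OPM2, and 3254 and 3384 in OCI-MY5. ARP1 was highest and no line overlapped another, but the lower ARP1 array was 1.87 times the highest of the others, just short of the 2-fold limit. By line means JUND was 2.96 times OCI-MY5 and 2.10 times OPM2 in ARP1, near the 2.87 and 2.46 of IER2, which met the rule. Without the OPM2 CD24+ array JUND passed that limit. On its 3 dimmer probe sets the lower ARP1 array was 2.17, 1.91 and 0.67 times the highest other array, the last with all 6 arrays within the TrpnX range. JUNB, often an antagonist of JUN, read 374 and 428 in ARP1, 475 and 534 in OCI-MY5, and 320 and 262 in OPM2. ARP1 lay between the other lines, and the highest array was 2.04 times the lowest (log2 range 0.98, just inside the 2-fold limit of that scale, while the next member, JUND, had 1.62). With a pseudocount of 1 JUNB was no longer inside that limit. JUNB did not share the high state of ARP1.

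ATF3, a stress-induced zipper protein that pairs with JUN proteins, was higher in ARP1 on 1 of its 3 probe sets. The brightest read 923 and 968 in ARP1, 361 and 396 in OCI-MY5, and 228 and 287 in OPM2, with no overlap between lines. Its lower ARP1 array was 2.33 times the highest other array. The dimmer probe sets did not show this. One read 214 and 243 in ARP1 and 85.4 to 273 on the other arrays, and the other read 23.0 and 104 in ARP1 but 337 in OPM2 CD24+ cells. With the mean of all 3 probe sets ATF3 no longer met the 2-fold rule, so its place among the high genes rests on the brightest one.

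EGR1 fell in steps from ARP1 to OCI-MY5 to OPM2, the reverse order of the lower lines in JUN. Its brightest probe set read 3079 and 3935 in ARP1, 724 and 975 in OCI-MY5, and 88.2 and 10.6 in OPM2. The lower ARP1 array was 3.16 times the highest other array, and the lower OCI-MY5 array 8.22 times the higher OPM2 array. Both OPM2 arrays were within the TrpnX range. Its other probe sets gave 3.10 and 2.99 for the same ratio of ARP1 over the highest other array. OCI-MY5 was above OPM2 on 2 of the 3, and on the last the OPM2 CD24+ array read 132, between the 86.0 and 173 of OCI-MY5.

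DUSP1, the feedback phosphatase, was expressed in every line and far higher in ARP1. It read 23170 and 24889 in ARP1, 956 and 869 in OCI-MY5, and 502 and 1181 in OPM2. The other lines overlapped, and the lower ARP1 array was 19.6 times the highest of them. A dimmer probe set read 663 and 970 in ARP1 and 4.91 to 8.27 elsewhere, within the TrpnX range. A further one did not separate the lines, with 193 and 93.0 in ARP1 and 66.3 to 271 on the others. DUSP1 was also the member nearest to FOSB in the shape of its profile on this log2 scale. After each gene was centred on its own mean, the root mean square difference over the 6 arrays was 0.53 log2 units, against 1.49 between DUSP1 and FOS. Outside ARP1, FOSB was wholly within the TrpnX range and DUSP1 was not, so the distance between them depends on background and the pseudocount. With a pseudocount of 1, ARP1 minus the other lines was 5.76 for FOSB and 4.84 for DUSP1. With 64 it was 4.21 for FOSB and 4.73 for DUSP1.

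IER2 and ZFP36, the remaining early genes, were bright in all lines. IER2 read 7591 and 8266 in ARP1, 3161 and 2364 in OCI-MY5, and 2973 and 3479 in OPM2. The other lines overlapped, and the lower ARP1 array was 2.18 times the highest of them, the smallest gap among the 7 members inside the limit. ZFP36 read 2343 and 1858 in ARP1, 1317 and 1344 in OCI-MY5, and 1976 and 1756 in OPM2. ARP1 and OPM2 overlapped and the highest array was 1.78 times the lowest. ZFP36 was thus the steadiest of the members, with a log2 range of 0.82, against a median range of 1.26 over all tested genes. IER2 and JUND were the pair most alike in profile, at 0.23 log2 units.

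**Figure D2:**
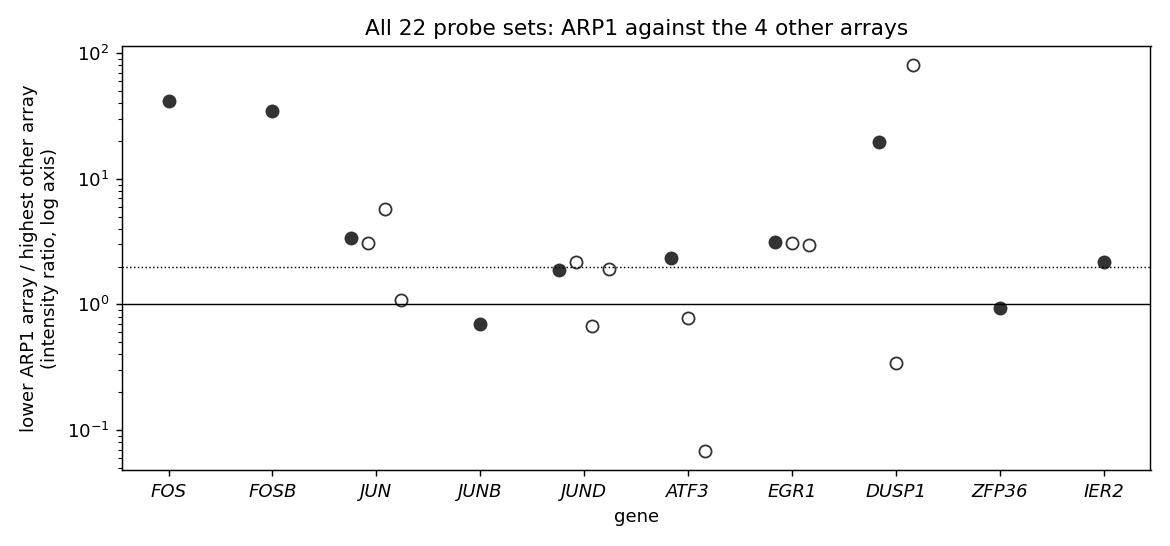
Ratio of the lower ARP1 array to the highest of the 4 other arrays (intensity, log axis) for all 22 probe sets, the brightest of each gene filled, with lines at 1 and 2. Of the 22, 16 are above 1 and 13 at or above 2, and DUSP1, JUND and ATF3 each have at least 1 probe set below 1. Of the 22, 18 passed the brightness limit and 1 was wholly within the TrpnX range. Over tested genes, by the brightest probe set, the shares were 17.2% and, on the log2(intensity + 16) scale, 1.48%. Shares over all probe sets are not given. The counts are a description, since this contrast chose the list.

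**Figure D3:**
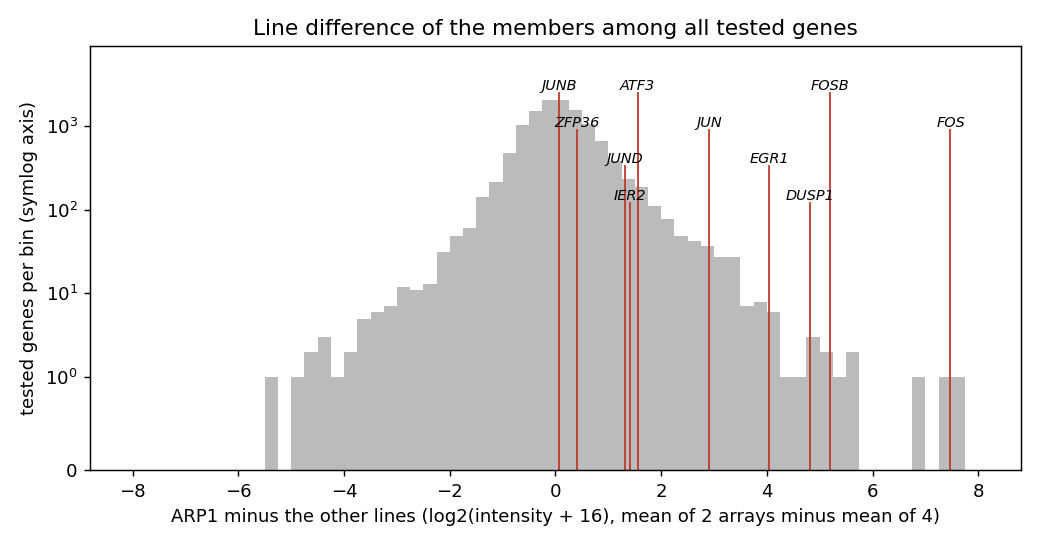
Mean of the ARP1 arrays minus mean of the 4 others (log2(intensity + 16)) for 12067 tested genes, as a histogram with a symlog count axis, and the 10 members as vertical lines whose heights carry no value. FOS (7.48), FOSB (5.19), DUSP1 (4.81) and EGR1 (4.04) lie in the far right tail, and JUNB (0.06) and ZFP36 (0.40) near the centre. Without OPM2 the EGR1 value is 2.03, and with the mean of all probe sets DUSP1 is at 3.32.

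The genes nearest to FOS in profile, by the same measure, were GNLY at 1.43, EMP1 at 1.72, TCEA3 at 2.11, ASS1 at 2.12 and CD200 at 2.14 log2 units over 6 arrays. GNLY, a protein of cytotoxic granules, read 5215 and 6859 in ARP1 and 5.51 to 119 elsewhere. EMP1, a membrane protein of epithelial cells, read 787 and 904 in ARP1 and 3.29 to 30.6 elsewhere. Nearest to JUN were KLHL13 (0.43), RAP1GAP2 (0.43), PPIC (0.45), MB (0.45) and ZMAT1 (0.55). PPIC, a cyclophilin, read 3542 and 3469 in ARP1, 1790 and 1034 in OPM2, and 277 and 209 in OCI-MY5, the order of JUN. Outside ARP1, FOS, GNLY and ASS1 lay mostly, and EMP1, TCEA3 and CD200 wholly, within the TrpnX range. Distances from FOS on those arrays are set by background and the pseudocount. In OCI-MY5, KLHL13, RAP1GAP2, MB and ZMAT1 were within that range too, where the brightest probe set of JUN was not. The 6 arrays come from 3 lines, and any gene set by line alone can come near.

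No member passed limma's test between CD24+ and CD24- cells. After Benjamini-Hochberg adjustment over 12067 genes 0 of 10 members passed at 0.05, with every adjusted p at 1, and 0% of all genes did. Unadjusted, 0 members had a p below 0.05, against 147 genes in all (1.22%). With the cell line as a block 0 members and 0 genes passed (members' adjusted p from 0.847 to 0.985, limma), and unadjusted 0 members and 559 genes (4.63%) were below 0.05. The median difference between CD24+ and CD24- cells was -0.001 for the members and 0.03 for all tested genes. Mean differences were -0.99 ± 2.87 for FOS (log2, standard error of the unblocked fit, 0.69 with the block), 0.36 ± 1.95 for FOSB, -0.14 ± 1.24 for JUN, -0.39 ± 1.82 for DUSP1 and 0.40 ± 2.05 for EGR1. The standard errors of the unblocked fit are wide because they hold the spread between lines. The other members, with smaller standard errors, differed by -0.02 ± 0.35 (JUNB), 0.05 ± 0.57 (JUND), 0.02 ± 0.59 (IER2), -0.17 ± 0.65 (ATF3) and 0.16 ± 0.33 (ZFP36). With the line as a block the standard errors were 0.19 for FOSB, 0.20 for JUN, 0.32 for DUSP1 and 0.56 for EGR1. They were then 0.18 for JUNB, 0.16 for JUND, 0.20 for IER2, 0.15 for ATF3 and 0.16 for ZFP36. The sign was the same in all 3 lines for 2 of 10 members, FOSB and ATF3, against 29.1% of all genes. FOSB has no readable direction in OCI-MY5 and OPM2, where it was within the TrpnX range, and the mean of all probe sets turned ATF3 from -0.17 to 0.35. A p that misses the threshold does not show that the fractions are alike.

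Within ARP1, where the genes were high, they were so in both fractions. No member differed 2-fold between the CD24+ and CD24- cells of ARP1 on its brightest probe set (5.04% of all genes did). In 8 of the 10 members the CD24- array was the higher one, against 48.6% of all genes, by 0.07 for ATF3 to 0.50 for JUN. JUN was higher in CD24- cells on all 4 of its probe sets, by 1.06 to 1.69 times in intensity, and EGR1 and ATF3 on all 3 of theirs. JUND was so on 3 of 4 and DUSP1 on 2 of 3. For 1 of these ATF3 probe sets the CD24+ array was within the TrpnX range (23.0 against 104). For 1 of these JUND probe sets both arrays were (59.2 against 80.4). Shares over all probe sets are not given for these counts. The remaining DUSP1 probe set was 2.08 times higher in CD24+ cells (193 against 93.0, the latter within the TrpnX range). FOSB differed by 0.04 and ZFP36 by 0.33 with CD24+ cells higher. With quantile normalization the count of members higher in CD24- cells was 8, and after centring every array at its median 9, against 64.7% of all genes. In OCI-MY5 the CD24- array was higher in 5 of 10 members (46% of all genes) and none differed 2-fold (5.69% of all genes).

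In OPM2, 3 of 10 members were at least 2-fold apart, against 18.2% of all genes: FOS and DUSP1 lower (5.2% of all genes) and EGR1 higher (13% of all genes) in CD24+ cells. DUSP1, well above the TrpnX range in both fractions, differed by -1.21 (502 against 1181). Its other probe sets were both higher in CD24+ cells, 1 of them within the TrpnX range in both. FOS differed by -2.96 (11.9 against 202), its CD24+ array being within the TrpnX range, so the size is set by background. EGR1 differed by 1.97 (88.2 against 10.6) with both arrays within that range, where values cannot be told from background. Of its other probe sets 1 was within the range in both fractions too (25.8 and 3.23), and the last read 132 in CD24+ cells and 3.60, within the range, in CD24- cells. These differences rest on the OPM2 CD24+ array with the high spike-ins and the raised median intensity, whose part in them was not tested, and each is 1 array against 1 array.

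**Figure D4:**
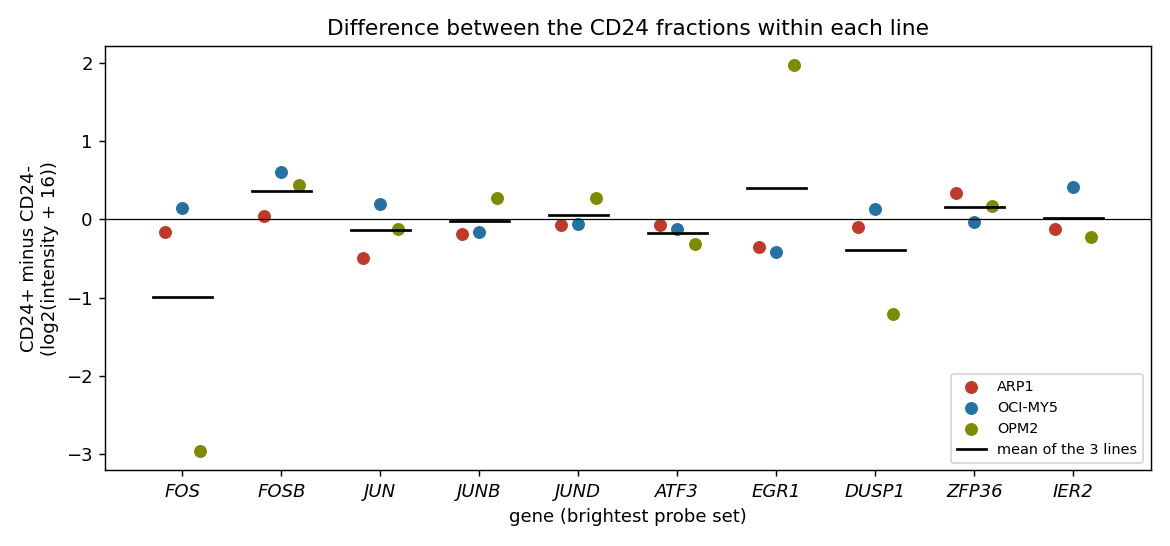
Difference between CD24+ and CD24- cells (log2(intensity + 16)) of the brightest probe set of each member, 1 point per line, with the mean of the 3 lines as a bar. Points of ARP1 and OCI-MY5 lie between -0.50 and 0.61, and those of OPM2 reach -2.96 for FOS and 1.97 for EGR1, in which 1 and both of the arrays lie within the TrpnX range.

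Lists of related genes held 0 to 2 genes each that were at least 2-fold higher in ARP1. Over all tested genes 1.48% were at least 2-fold above the other lines in ARP1 and 0.406% below. Both ARP1 arrays were highest, by any amount, for 17.2% of all genes and lowest for 13.6%. The lists were drawn up with earlier results known, and the difference from the members was not tested. Of 15 tested partners in AP-1 and other zipper dimers, 0 were at least 2-fold above the other lines in ARP1, with a median difference of 0.11. Both ARP1 arrays were highest for 4 of them, among them the JUN dimerization protein JDP2 (513 and 385 in ARP1 against 6.86 to 256), BATF3 (1342 and 1409 against 138 to 827) and the small MAF protein MAFF (1482 and 1695 against 194 to 1016). The partners ATF7, MAFG and NFE2L2 were lowest in ARP1. FOSL2, a further FOS-family gene, differed by 1.60 from the other lines with both ARP1 arrays highest.

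Of 28 other immediate early genes tested, 2 were at least 2-fold above and 1 below (1.48% and 0.406% of all genes), with a median of 0.32. The nuclear receptor NR4A2 read 940 and 828 in ARP1 and 72.0 to 179 elsewhere. Outside ARP1 only the OPM2 CD24+ array (179) was above the TrpnX range for it. KLF6, a zinc finger factor, read 19799 and 17485 against 4251 to 4857. ID1, an inhibitor of helix-loop-helix factors, went the other way, with 467 and 388 in ARP1 against 1329 to 2732. NFKBIZ, an NF-kB regulator, was lowest in ARP1 as well (289 and 432 against 820 to 2371).

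Of 19 MAP kinase and serum response genes tested 0 were 2-fold above or below, with a median of 0.27. ELK4, a partner of serum response factor, read 2030 and 2397 in ARP1 against 1057 to 1451. Of 16 genes of ERK feedback and output 0 were 2-fold above or below, with a median of -0.19. DUSP6, the ERK phosphatase, read 1645 and 2741 in ARP1 against 1361 to 1645, touching the other lines, and the ERK inhibitor SPRY1 was lowest in ARP1 (621 and 744 against 992 to 1218). Of 13 tested genes listed as AP-1 targets 2 were 2-fold above (1.48% of all genes), with a median of 0.50. They were S100A6, a calcium-binding protein (25122 and 26518 against 24.2 to 4600), and TIMP1, an inhibitor of metalloproteases (13565 and 13930 against 4355 to 5223). PLAUR, the urokinase receptor, read 844 and 817 against 76.7 to 486.

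Of 11 factors of AU-rich mRNA decay, the process ZFP36 serves, 0 were 2-fold above or below, with a median of 0.01. ZFP36L2, its relative, read 8211 and 7992 in ARP1 against 8257 to 16739. Of 10 tested genes listed as heat shock genes of cell handling 1, HSPB1, was 2-fold above in ARP1 (1.48% of all genes). It read 6390 and 6278 in ARP1 against 2089 to 2993. Both ARP1 arrays were lowest for 5 of the list (13.6% of all genes), with a median of -0.15. Whether these genes respond to handling in these cells was not tested. HSP90AA1 read 26316 and 26468 in ARP1 against 42756 to 118444, and BAG3 1192 and 1176 against 2176 to 2273. In none of these 7 lists did a gene pass limma's adjusted threshold between the CD24 fractions, with or without the block.

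**Figure D5:**
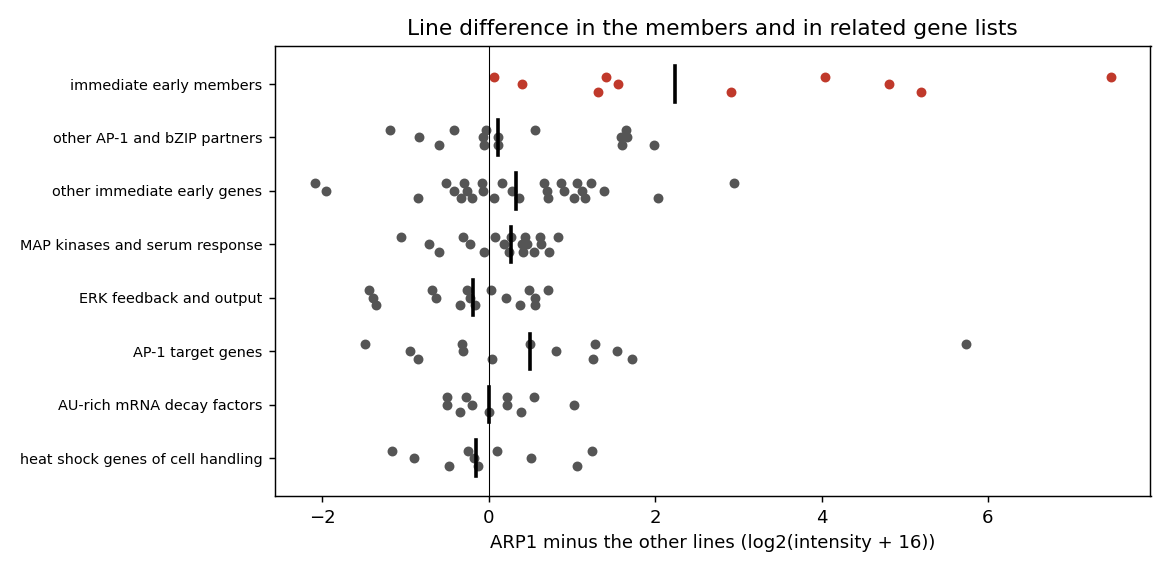
ARP1 minus the other lines (log2(intensity + 16)) for the 10 members and for the tested genes of 7 related lists, 1 point per gene, with the median of each as a bar. The median is 2.23 for the members and lies between -0.19 and 0.50 for the lists.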

How the data were processed

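RNA of sorted CD24+ and CD24- cells of 3 myeloma lines was measured on Affymetrix U133 Plus 2.0 arrays, 1 per sample. The authors used MAS5 in Affymetrix Expression Console 1.1, according to the design text and the submitters' processing notes, and the deposited values are intensities on a linear scale. Raw scanner files and detection calls were not used here. Of 54675 probe sets, 62 controls were left out, 41091 had 1 gene symbol, 1801 several and 11721 none, and 41037 matched the RefSeq gene table of GRCh38.p14 by Entrez ID for current symbols. The brightest probe set stood for a gene. A gene was tested, on log2(intensity + 16), if its mean reached 6.36, the median brightness over probe sets; 12067 did. Other probe sets of the members are given beside it. Probe sets ending in x_at may bind related transcripts; the brightest of JUN is one.

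CD24+ was set against CD24- with limma 3.58.1 in R 4.3.3 (lmFit, eBayes, two-sided, Benjamini-Hochberg at 0.05), tested on simulated data first. The reported fit had no block, as the design text states no pairing; the line, which the title numbers stand for, was the block of the alternative. Deviations from group means correlated at 0.70 to 0.77 between fractions of a line and at -0.58 to 0.15 between lines, so the numbers pair the samples by cell line. Line patterns were counted without a test. Named were all members, up to 3 genes per list and direction with ARP1 arrays outside the range of the others, and the 5 genes nearest to FOS and to JUN; FOSL2 was added after its values were seen. Members, lists and motifs were chosen with earlier results of these data, or the sequences, known. The number of arrays limits the precision.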

Additional observations from a re-analysis of the deposited data

Results flagged for a closer look

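The CD24 difference of FOS had opposite signs in OCI-MY5 (0.14) and OPM2 (-2.96), 3.11 log2 units apart, and that of EGR1 in OPM2 (1.97) and OCI-MY5 (-0.42), 2.39 apart. For FOS both OCI-MY5 arrays and the OPM2 CD24+ array, and for EGR1 both OPM2 arrays, were within the range of the TrpnX negative controls. On these brightest probe sets FOS thus has no readable direction in OCI-MY5, nor EGR1 in OPM2, and the sizes are set by background. All 3 EGR1 probe sets were higher in CD24+ cells of OPM2, but only 1 rose above that range there (132 against 3.60). With 1 array per line and fraction neither difference between lines was tested.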

How the results depend on the processing

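No setting brought a member or any gene past the test between fractions (0 in each, with the cell line as replicate block too), and FOS, FOSB, JUN, EGR1 and DUSP1 met the 2-fold rule for ARP1 under every setting run in which they were tested; with the limit raised to the 75th percentile FOS and FOSB were too dim to be tested, and 5 of the 8 others were high. The count of members high in ARP1 was 7 to 8 when another line or any array was left out (it has no value without ARP1), JUND being the one added without OPM2 or its CD24+ array, 5 with arrays centred on their medians (without IER2 and ATF3), 6 with the mean of all probe sets, 8 at a limit of 1.5-fold and 3 at 4-fold. The count of constant members, 2, was 1 with a pseudocount of 1 and with centring (JUNB lost), 0 at 1.5-fold, 4 at 4-fold, and 2 to 6 with a line or an array left out, the 6 being without ARP1.

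Differences between CD24+ and CD24- cells turned sign with centring for JUND (-0.28), IER2 (-0.31) and ZFP36 (-0.17), where the median of all genes moved from 0.03 to -0.30, and with the mean of all probe sets for DUSP1 (0.10) and ATF3 (0.35). With a line or an array left out they ran from -3.69 to 1.29 for FOS, -1.29 to 2.17 for FOSB, -1.14 to 0.92 for JUN, -0.30 to 0.19 for JUNB, -0.36 to 0.52 for JUND, -1.67 to 1.93 for EGR1, -2.07 to 1.14 for DUSP1, -0.41 to 0.53 for IER2, -0.71 to 0.32 for ATF3 and -0.021 to 0.39 for ZFP36. Without a single array the fit sets unequal lines against each other; the cause of the other changes was not tested. The block changed no call and no sign. With a line or an array left out, ARP1 minus the other lines ran from -0.32 to 0.44 for JUNB, from 2.03 (without OPM2) to 6.05 (without OCI-MY5) for EGR1 and from 2.05 (without OCI-MY5) to 3.77 (without OPM2) for JUN. EGR1 gave 3.04 without the OPM2 CD24- array, against 4.04 with it. The mean of all probe sets took DUSP1 from 4.81 to 3.32. FOSB gave 5.76 with a pseudocount of 1 and 4.21 with 64. The sign was kept for the 9 members other than JUNB.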

Other observations

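Of the 12067 tested genes, 6 had both ARP1 arrays at least 16-fold above each other array on the log2(intensity + 16) scale. Of these, 3 were members, FOS, FOSB and DUSP1, by the same contrast that chose the list, and FOS and FOSB passed the brightness limit only through ARP1. The others were GNLY, S100A4, a calcium-binding protein, and EMP1, named after their values were seen. FOSB and EMP1 on all 4 other arrays, and FOS and GNLY each on 3 of them, were within the range of the TrpnX negative controls. Folds over those arrays are set by background.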
